A study of Mus musculus with 4 samples.

Results

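Lhx6 and Nxph1 GABAergic interneurons were examined in single-nucleus RNA sequencing of mouse brain. The study used MCAO, in which the middle cerebral artery is blocked for good, as its model of ischemic stroke. The nuclei were chosen by their own UMI counts (UMI, unique molecular identifier, a tag that marks each captured RNA molecule). A barcode was a member when it held more than 2000 UMIs and at least 3 UMIs of Gad1 and Gad2 together, and these made up at least 0.02% of its UMIs. In addition, the striatal genes Rgs9, Pde10a and Rarb had to make up under 0.1% of its UMIs. Lhx6, Nxph1 and Sst together had to reach at least 5 UMIs and exceed Adarb2. This gave 233 members of 7309 barcodes over 2000 UMIs, of which 73 of 1901 came from sham control, 46 of 1045 from day 1, 70 of 2864 from day 3 and 44 of 1499 from day 7. Where 4 values follow each other, they are in this order of libraries.

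All groups were male C57Black/6 mice of 3 month, and each group was 1 library of 3 hemispheres pooled while nuclei were isolated. The injured groups were collected 1, 3 and 7 days after the artery had been coagulated and cut. Differences between days therefore rest on single libraries without replicates, and intervals describe counting error alone. The control is labelled sham control, its protocol speaks of intact cortical tissue, and the design text gives forebrain hemispheres for every time point, so which tissue served as control is uncertain. The labels of day 3 and day 7 are uncertain, since barcode numbers in these libraries match the published composition by time point only with both labels exchanged. The deposited labels were kept here, so results of those days carry this doubt. Libraries held 23285489 to 42963698 UMIs in all. Members had median depths of 9307, 15679, 9103 and 9635.5 UMIs, and no member barcode was shared between libraries.

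Cortical and striatal interneurons that release GABA arise mainly in the ganglionic eminences of the embryonic forebrain. Those of the medial eminence carry the transcription factor Lhx6 and mature into parvalbumin cells, which silence the cell bodies of their targets, and somatostatin cells, which act on dendrites. Interneurons of the caudal eminence carry Adarb2 instead. Nxph1 encodes neurexophilin 1, a secreted ligand of alpha-neurexins at synapses. Gad1 and Gad2 encode the enzymes that make GABA. In GRCm38, Nxph1 lies at chr6:8948431-9249032, Lhx6 at chr2:36081953-36105408, Sst at chr16:23889573-23890958, Pvalb at chr15:78191114-78206400 and Adarb2 at chr13:8202866-8768747.

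Nxph1 carried the choice of members. The median member held 18, 24, 19 and 20 Nxph1 UMIs, and 227 of the 233 members reached 5 UMIs by Nxph1 alone. Lhx6 was sparse, with at least 1 UMI in 73 members and none in the other 160, and no member held more than 4. Sst alone reached 5 UMIs in 33 members. At the edge of the rule, members with exactly 5 UMIs of Lhx6, Nxph1 and Sst numbered 1, 0, 3 and 1, and 3, 3, 5 and 2 barcodes with 4 UMIs lay just outside. These values describe how the members were selected and are not findings.

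Detection in members was set beside nuclei that should lack the markers, namely glutamatergic barcodes (at least 3 UMIs of Slc17a7, the vesicular glutamate transporter of cortical excitatory neurons, at 0.02% or more of UMIs, and under 3 of Gad1 and Gad2). Nxph1 was seen in 95.9% to 100% of members and in 12% to 17.6% of glutamatergic barcodes, over the 4 libraries. Lhx6 was seen in 23.3%, 37.0%, 30% and 40.9% of members, against 0% to 1.03% of glutamatergic barcodes. The 0 of 234 glutamatergic barcodes in sham control has an exact 95% interval that reaches 1.56%. Median depth was 9103 to 15679 UMIs in members and 10381 to 15722 in glutamatergic barcodes. With each nucleus thinned to 2000 UMIs, Lhx6 was left in 4.29% to 5.48% of members and in at most 0.469% of glutamatergic barcodes. Pvalb was seen in 28.8% to 43.5% of members against 3.08% to 4.69% of glutamatergic barcodes, and Sst in 31.4% to 47.7% against 8.55% to 19.7%. The rule fixed the values of Gad1, Gad2, Nxph1, Lhx6 and Sst, so these are a description and no support for the label, and of the markers named only Pvalb was outside the rule. A Lhx6 UMI was present in 31.3% of all members.

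RNA of other cells was present in members. Summed over 22 glial marker genes, members held 990, 715, 1436 and 1872 CPM (the share of all UMIs summed over the nuclei of a class and library, in counts scaled to a common total). Barcodes of at most 100 UMIs, which hold free RNA, had 5636, 5111, 7059 and 7554 CPM of the same genes. If all glial UMIs in members were free RNA, free RNA would make up at most 17.6%, 14.0%, 20.3% and 24.8% of member UMIs. A doublet score marked 3, 1, 4 and 0 members.

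Of barcodes over 2000 UMIs, 3.84% in sham control were members (exact 95% interval 3.02 to 4.80). The day 1 share was 4.40% (3.24 to 5.83), the day 3 share 2.44% (1.91 to 3.08) and the day 7 share 2.94% (2.14 to 3.92). The share was thus lowest at day 3, where barcodes were also shallowest, with a median of 6241 UMIs against 10810 at day 1. With every barcode thinned to 2000 UMIs, and with 1 Gad UMI and 2 UMIs of Lhx6, Nxph1 and Sst required, the shares were 2.58%, 2.49%, 2.30% and 2.40%, and all 4 intervals overlapped. Among GABAergic barcodes under the striatal limit, the shares of members were 41.7% (34.3 to 49.4), 35.4% (27.2 to 44.2), 37.6% (30.7 to 45) and 40% (30.8 to 49.8). Against interneurons that Adarb2 marks, members made up 55.7%, 52.3%, 53.4% and 55% of both classes together. No loss or gain of members relative to other GABAergic neurons was detectable at this depth, with 44 to 73 members per library. Members include 57 nuclei with more Meis2 than Sox6, described below, of which 2 held a Lhx6 UMI.

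**Figure D1:**
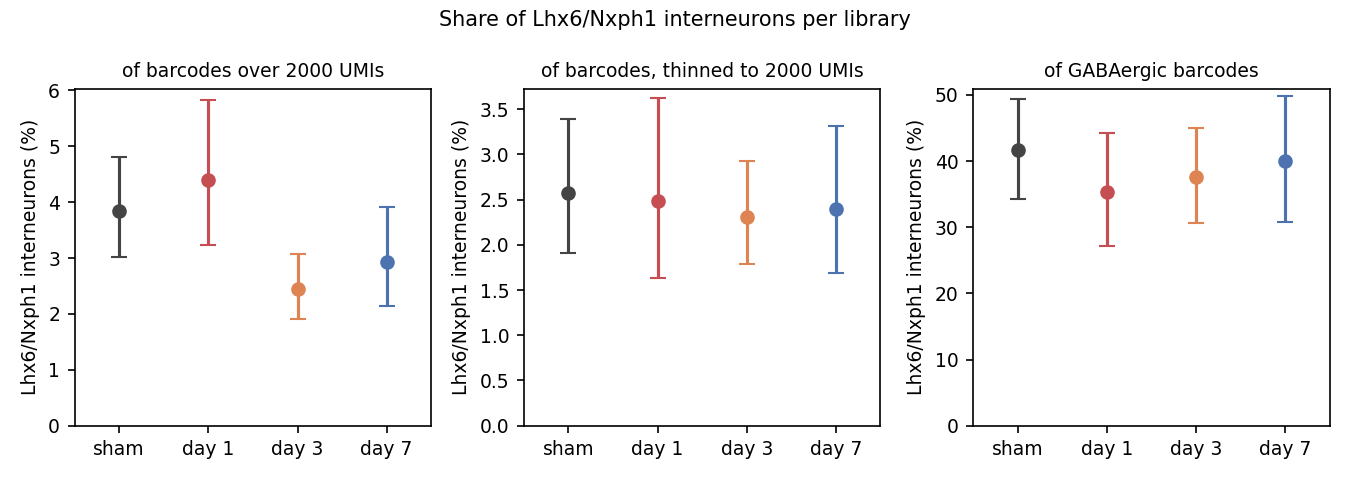
Share of Lhx6/Nxph1 interneurons in each library, in percent, with exact 95% binomial intervals, among barcodes over 2000 UMIs (left), among the same barcodes thinned to 2000 UMIs (middle) and among GABAergic barcodes (right). The spread from 2.44% to 4.40% on the left narrows to 2.30% to 2.58% after thinning.

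The first question put to genes outside the rule was how members differ from interneurons marked by Adarb2, the other large interneuron class in these libraries. Those 197 barcodes passed the same GABAergic and striatal limits and held at least 5 UMIs of Adarb2, and more of it than of Lhx6, Nxph1 and Sst. UMIs were summed per library and class, and the 4 libraries served as replicates with library as a block (edgeR quasi-likelihood test, Benjamini-Hochberg adjusted p under 0.05 over all genes tested, the 9 rule genes left out). Of 8393 genes, 240 were higher in members, or 2.86%, and 231 were lower, or 2.75%. The libraries differ in day, so the spread between replicates includes any effect of injury, and it may be partly technical.

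Transcription factors of the medial ganglionic eminence were mostly higher in members. Of 7 tested, 5 were higher (among them Zeb2, Sox6, Maf and Satb1), 0 were lower, and the median log2 fold was 1.03 against -0.01 over all genes tested. Sox6, which fixes the position and subtype of these cells, stood at 501, 518, 761 and 540 CPM in members of sham control, day 1, day 3 and day 7, and at 221, 235, 455 and 219 CPM in Adarb2 interneurons. The log2 fold was 1.08 (SE 0.13, adjusted p 3.84e-05). Satb1, a chromatin organiser needed for somatostatin cells, stood at 109, 92.3, 123 and 144 CPM in members and at 46.2, 39.1, 44.2 and 16.6 CPM in Adarb2 interneurons (log2 fold 1.57, SE 0.22, adjusted p 0.000159).

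Markers of mature subtypes followed. Pvalb, the calcium buffer that names the fast-spiking class, was not part of the rule. It stood at 46.6, 51.0, 44.8 and 44.2 CPM in members and at 6.84, 12.1, 17.3 and 11.1 CPM in Adarb2 interneurons (log2 fold 1.99, SE 0.28, adjusted p 0.000225). Of 11 parvalbumin cell markers tested, 6 were higher (Syt2, Slit2, Kcna1, Eya4, Kcnc2 and Pvalb), 0 were lower, and the median was 0.83. Genes such as Pvalb, and Eya4 with 379 UMIs in members and 16 in Adarb2 interneurons, passed the filter through the members. This count and median are therefore no support. Of 8 somatostatin cell markers, 2 were higher (Calb1 and Grin3a) and 0 lower, with a median of 0.40. Of 7 markers of caudal eminence cells, 3 were lower (Lamp5, Cnr1 and Egfr) and 0 higher, with a median of -0.71. The Lamp5 call was lost without day 1 or day 3, and the Egfr call without day 3. Of 5 markers of other GABAergic populations, 4 were lower (Meis2, Foxp2, Npas1 and Tshz1) and 0 higher, with a median of -1.53, and the Npas1 call was lost without day 1, day 3 or day 7.

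The largest positive differences were those of Moxd1 and Eya4. Moxd1, a monooxygenase-like protein at chr10:24223517-24302790, stood at 32.3, 25.5, 44.8 and 86.6 CPM in members and at 3.42, 2.7, 1.92 and 0 CPM in Adarb2 interneurons (log2 fold 4.09, SE 0.45, adjusted p 2.11e-05). Eya4, a transcriptional coactivator and phosphatase at chr10:23102963-23350786, stood at 105, 95.9, 138 and 192 CPM against 6.84, 1.35, 19.2 and 2.77 CPM (log2 fold 4.07, SE 0.32, adjusted p 6.82e-07). In both genes every library of members lay above every library of Adarb2 interneurons. Both were picked for large folds in the same direction, so this is no result. Mypn, a sarcomere protein, followed with a log2 fold of 3.87, and then the motor protein Myo1e (2.90), the delta opioid receptor gene Oprd1 (2.88), the ubiquitin ligase Rnf144b (2.76), the mitotic kinase Nek7 (2.61), the hyaluronan-degrading factor Cemip (2.43) and the membrane protein Tmem132c (2.20). Sox5os4, which lies antisense to Sox5, and Tmem132cos, which overlaps Tmem132c, were also among the 12 largest, and their reads may be shared with the genes they overlap.

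Lower in members were Megf10 (log2 fold -3.22), a phagocytic receptor, Chst9 (-3.16), a sulfotransferase, and Hcrtr2 (-2.54), the orexin receptor 2. Chst9 stood at 13.1, 9.71, 6.40 and 12.9 CPM in members and at 99.2, 71.5, 74.9 and 150 CPM in Adarb2 interneurons. Foxp2, a forkhead transcription factor, stood at 141, 41.3, 43.5 and 60.8 CPM against 333, 375, 405 and 385 CPM (log2 fold -2.46, SE 0.25, adjusted p 8.17e-06). Other members of the 12 lowest were Sema3c (-2.45) and Ndst4 (-2.44), which act in axon guidance and heparan sulfate synthesis, Rgs12 (-2.39), Tshz1 (-2.25), Pde11a (-2.15), Dchs2 (-2.13) and Sorcs3 (-1.99). Named genes were chosen for pointing the same way in 4 of 4 libraries, so that agreement is no result.

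**Figure D2:**
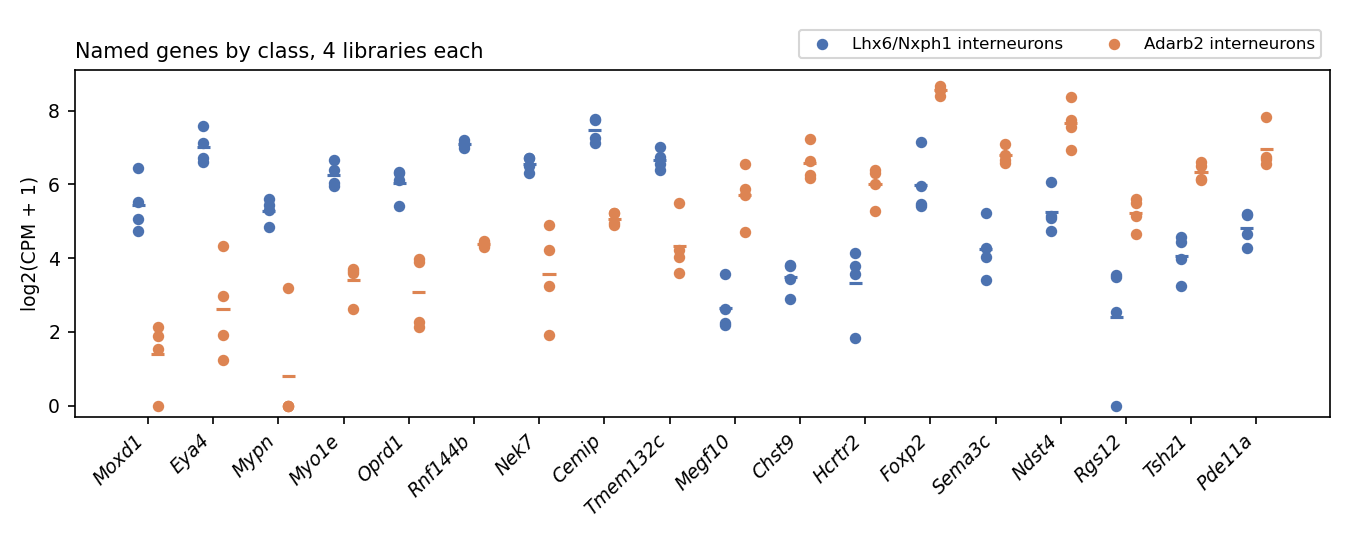
CPM of named genes on a log2(CPM + 1) axis in Lhx6/Nxph1 interneurons (blue) and Adarb2 interneurons (orange). Each point is 1 library, with 4 per class, and the bar is the mean of the log2 values. The 9 genes on the left are higher in members and the 9 on the right are lower. Genes were picked for large folds in the same direction, so the lack of overlap between classes is no result.

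Genes of synaptic and electrical signalling were split in direction. Of 12 GABA-A receptor subunits, Gabrd, the subunit of extrasynaptic receptors, was higher, and Gabrg1, Gabra2 and Gabrb2 were lower (median -0.32). The Gabrg1 and Gabra2 calls were lost without day 1 and the Gabrd call without sham control or day 1. Of 17 ionotropic glutamate receptor subunits, 4 were higher (Grin3a, Gria4, Gria1 and Gria3) and 3 lower (among them Grik4 and Grid1), where Gria4 lost its call without sham control, day 1 or day 3. Of 15 voltage-gated potassium channel genes, 5 were higher and 3 lower, and 5 of these 8 calls held whichever library was left out. Kcnc2, a Kv3 channel of fast-spiking cells, stood at 1207, 1096, 1963 and 1700 CPM in members and at 674, 784, 842 and 990 CPM in Adarb2 interneurons (log2 fold 0.83, SE 0.13, adjusted p 0.000717). Kcnd2, a Kv4 channel, was lower (log2 fold -0.64, SE 0.13, adjusted p 0.0047). Of 12 neurexin-related genes tested, Cntnap4 and Cntnap3 were higher by 1.00 and 1.32 on the log2 scale, and 2 genes were lower, among them Nrxn2, which encodes a neurexin (log2 fold -0.47). The Nrxn2 call was lost whichever of the 4 libraries was left out. For GABA handling 0 of 4 genes tested were called by edgeR, and the transporter Slc32a1 had a log2 fold of 0.08 (SE 0.18).

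Oligodendrocyte markers moved with the class: 3 of 7 tested (among them Mog and Mbp) were higher in members and 0 lower, with a median of 0.78, and their part in the result was not tested. Mbp stood at 81.3 to 175 CPM in members and at 52.7 to 97.5 CPM in Adarb2 interneurons. Without day 3 the test called 145 genes higher and 141 lower, and without day 1 it called 136 lower. DESeq2 called 124 higher and 101 lower, and all of these were among the calls of edgeR.

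Members were next divided by the peptide and calcium-buffer genes of the mature subtypes. Sst members, with at least 3 Sst UMIs and more Sst than Pvalb, numbered 14, 9, 10 and 9. Pvalb members, with at least 2 Pvalb UMIs and under 3 of Sst, numbered 9, 9, 8 and 5. The other 160 members, 50, 28, 52 and 30 by library, met neither definition, and 3 of these held at least 3 Sst UMIs but no more Sst than Pvalb. Median depth was 8833 to 14147 UMIs in Sst members and 7251 to 18325 in Pvalb members. Shares of Sst members were 19.2%, 19.6%, 14.3% and 20.5% in the 4 libraries, with overlapping exact intervals.

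Of 2685 genes tested between the subgroups, with Sst and Pvalb left out, 129 were higher in Sst members, or 4.8%, and 91 in Pvalb members, or 3.39%. Shisa6, an auxiliary protein of AMPA receptors at chr11:66211725-66525964, stood at 263, 154, 1327 and 487 CPM in Sst members and had 0 UMIs in Pvalb members of every library. Over a floor of 3 UMIs for the group it was at least 72.5-fold higher. Elfn1, a postsynaptic protein that shapes the short-term facilitation of excitatory input onto somatostatin cells (chr5:139907943-139974722), stood at 182, 173, 236 and 194 CPM and also had 0 UMIs in Pvalb members, at least 28.0-fold higher. The vesicle protein Synpr had 501 UMIs in Sst members and 2 in Pvalb members, and the cation channel Trpc6 had 142 and 1.

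Other genes higher in Sst members were Sema6d (log2 fold 4.78), Nkain3 (4.48), the peptidase Trhde (4.40), Reln (3.65), the AMPA receptor auxiliary subunit Cacng3 (3.62) and Ildr2 (3.55). Reln, the secreted glycoprotein reelin, stood at 469, 366, 1144 and 381 CPM in Sst members and at 8.23, 92.7, 42.5 and 0 CPM in Pvalb members. Of 16 somatostatin markers, 4 had enough UMIs to be tested and were higher, among them Grin3a, Elfn1 and Npy, but genes such as Elfn1 passed the filter through the Sst members alone, so this count is no support. Npy, a peptide co-released by many somatostatin cells, stood at 75.1, 167, 262 and 246 CPM against 16.5, 9.76, 14.2 and 27.0 CPM (log2 fold 3.50, SE 0.44, adjusted p 0.000265), and this call was lost without day 1.

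Higher in Pvalb members were the splicing factor Rbm20 (log2 fold of Sst over Pvalb members -3.52), Syt2 (-3.43), Myo1e (-2.96), Tmem108 (-2.88), the phospholipase Plch1 (-2.72), Cemip (-2.72), St3gal6 (-2.58), Parm1 (-2.46) and Slit2 (-2.38). Syt2, the calcium sensor for fast release in parvalbumin terminals, stood at 230, 273, 255 and 243 CPM in Pvalb members and at 6.26, 32.1, 0 and 46.9 CPM in Sst members (SE 0.46, adjusted p 0.000368). Erbb4, the neuregulin receptor of these cells, stood at 5038, 6645, 8938 and 3505 CPM against 1252, 1982, 891 and 1332 CPM (log2 fold -2.03, SE 0.27, adjusted p 0.000343). Of 8 parvalbumin markers tested, 4 were higher in Pvalb members (Erbb4, Syt2, Slit2 and Kcna1) and 0 lower. Genes such as Syt2, with 14 UMIs in Sst members and 111 in Pvalb members, passed the filter through the Pvalb members. This count is therefore no support. Syt2 overlaps Ppp1r12b and St3gal6 overlaps Dcbld2, so reads of those pairs may be shared. Fam163a, Slc4a4 and Fras1, also among the 12 largest in this direction, each lost the call when at least 2 of the libraries were left out in turn, and Myo1e lost it without day 1.

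**Figure D3:**
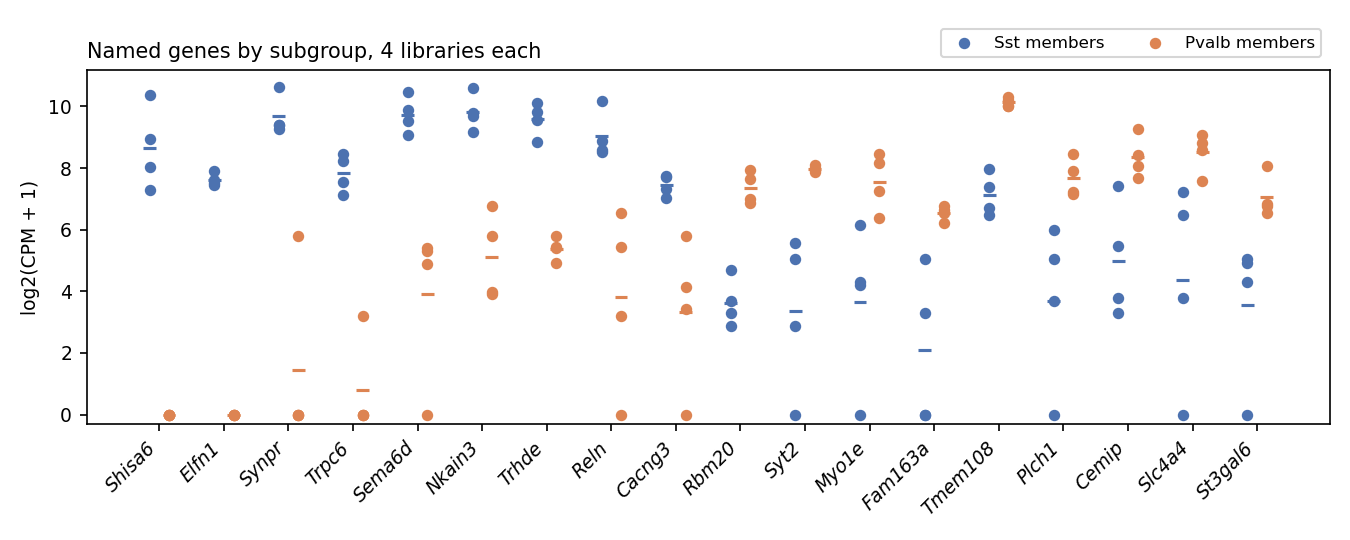
CPM of named genes on a log2(CPM + 1) axis in Sst members (blue) and Pvalb members (orange). Each point is 1 library, with 4 per subgroup, and the bar is the mean of the log2 values. Shisa6 and Elfn1 have 0 UMIs in Pvalb members of all 4 libraries.

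Receptor and channel genes separated the subgroups as well. Of 14 ionotropic glutamate receptor subunits tested, 6 were higher in Sst members (among them Grin3a, Grik3, Grik2, Gria1 and Grik1) and 0 lower, with a median of 0.69. Gria1, an AMPA receptor subunit, stood at 2404, 1995, 4899 and 2647 CPM against 774, 839, 1119 and 647 CPM (log2 fold 1.81, SE 0.22, adjusted p 0.000243). Of 8 GABA-A receptor subunits, Gabra2 was higher in Sst members, and 4 were higher in Pvalb members, among them Gabrg3 and Gabrb2. The Gabrb2 call was lost whichever of the 4 libraries was left out, and the Grik2 and Grik1 calls ended in at least 2 of these leave-outs. Gabrg3 held in each, with 2247, 2420, 2011 and 1564 CPM in Pvalb members and 870, 1033, 288 and 376 CPM in Sst members. Of 14 potassium channel genes tested, 2 were higher in Sst members, among them Kcnd3, and 3 in Pvalb members, among them Kcnh7 and Kcna1. Kcna1 lost its call without day 3. Kcnc2 had a log2 fold of -0.18 (SE 0.26, adjusted p 0.773). The calcium channel gene Cacna1e was higher in Sst members (log2 fold 2.61, SE 0.33, adjusted p 0.000265).

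Without day 3 the test called 80 genes higher in Sst members and 47 higher in Pvalb members, and without sham control 48 higher in Pvalb members. These sums rest on 5 to 14 nuclei each.

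The absence of Lhx6 UMIs in 160 members was then described by the genes that differ from the 73 members with one. Depth and expression cannot be told apart for a single missing UMI. Members without a Lhx6 UMI numbered 56, 29, 49 and 26, with median depths of 8758, 14849, 8344 and 9264.5 UMIs. Members with one numbered 17, 17, 21 and 18, with 14829, 15947, 10753 and 10288 UMIs, so they were deeper in every library. Of 5244 genes tested, 121 were higher in members without a Lhx6 UMI, or 2.31%, and 124 were lower, or 2.36%.

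Fign, a microtubule-severing enzyme at chr2:63971507-64098038, stood at 184, 232, 201 and 68.0 CPM in members without a Lhx6 UMI and at 23.9, 19.1, 10.5 and 0 CPM in those with one (log2 fold 3.61, SE 0.30, adjusted p 6.87e-06). Hs3st4, a heparan sulfate sulfotransferase, stood at 993, 1284, 903 and 680 CPM against 227, 178, 42.2 and 56.3 CPM (log2 fold 3.00). The transcription factors Zfp521 (2.80), Zfhx3 (2.80), Zfhx4 (2.72), Pbx3 (2.41), Zbtb7c (2.30) and Meis2 (2.15) were also higher, as were the long non-coding RNA Rmst (2.65) and Megf11 (2.08). Meis2, a homeobox gene, stood at 339, 345, 414 and 398 CPM against 75.7, 121, 59.8 and 64.3 CPM (SE 0.21, adjusted p 1.78e-05). It was not particular to GABAergic nuclei, with a UMI in 50.2% to 61.5% of glutamatergic barcodes and in 36.4% to 43.5% of members. Every library of members without a Lhx6 UMI lay above every library of members with one for Fign, Hs3st4 and Meis2. These genes were picked for large folds in the same direction, so this is no result.

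Genes lower in members without a Lhx6 UMI included Elfn1 (log2 fold -2.26), Eya4 (-1.92), Nek7 (-1.54), Moxd1 (-1.53), Lypd6 (-1.49), Cntnap5c (-1.37), Satb1 (-1.31), Pde5a (-1.30), Cemip (-1.28), Col19a1 (-1.23) and Runx2 (-1.22), of which Lypd6 and Pde5a lost the call in at least 2 leave-outs. Of 5 medial eminence transcription factors tested, 4 were lower (Zeb2, Sox6, Maf and Satb1) and 0 higher, with a median of -1.09 against 0.01, and the Zeb2 call was lost whichever of the 4 libraries was left out. Of 6 mitochondrially encoded genes tested, 5 were higher in members without a Lhx6 UMI, and 1 of these calls held in every leave-out. Without day 3 the test called 73 genes higher, without sham control 78 lower and without day 1 66 lower. Runx2 overlaps Supt3.

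Members were also divided by Sox6 and Meis2, a division chosen after both were seen to differ by Lhx6 UMI. The Lhx6 shares of its parts therefore restate that difference and are no result. No test was made of the division itself. Sox6 exceeded Meis2 in 140 members, Meis2 exceeded Sox6 in 57, and the 2 were equal in 36. Of the 140 members with more Sox6, 66 had a Lhx6 UMI (47.1%), against 2 of the 57 with more Meis2 (3.51%). Median depths were 10370 and 11052 UMIs. The share of members with more Meis2 was 26.0%, 28.3%, 21.4% and 22.7%, with overlapping exact intervals. Median Nxph1 was 24 UMIs in members with more Sox6 and 12 in those with more Meis2, and at least 3 Sst UMIs were present in 33 and 9 of them. When the comparison by Lhx6 UMI was repeated in the 140 members with more Sox6 alone, edgeR called 1 of 4253 genes higher and 0 lower, with 231 at an unadjusted p under 0.05, and this fit holds fewer nuclei, 11 to 26 per sum. The named lower genes kept their direction with smaller log2 folds, such as Elfn1 at -1.28 (from -2.26, adjusted p 0.187), Lypd6 at -1.10 (from -1.49) and Cntnap5c at -0.77 (from -1.37). Others came closer to 0, such as Satb1 at -0.39 (from -1.31), Pde5a at -0.31 (from -1.30) and Col19a1 at -0.28 (from -1.23). Of the higher genes Rmst stood at 1.24 and Hs3st4 at 0.21. Meis2, on which these nuclei were picked, had a log2 fold of -0.25, which the choice of nuclei bears on.

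Adarb2 reached 5 UMIs in 25 members, namely 8, 8, 7 and 2 by library. Leaving these out, together with Adarb2 interneurons that held 5 UMIs of Lhx6, Nxph1 and Sst, the comparison between classes called 290 genes higher and 264 lower.

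**Figure D4:**
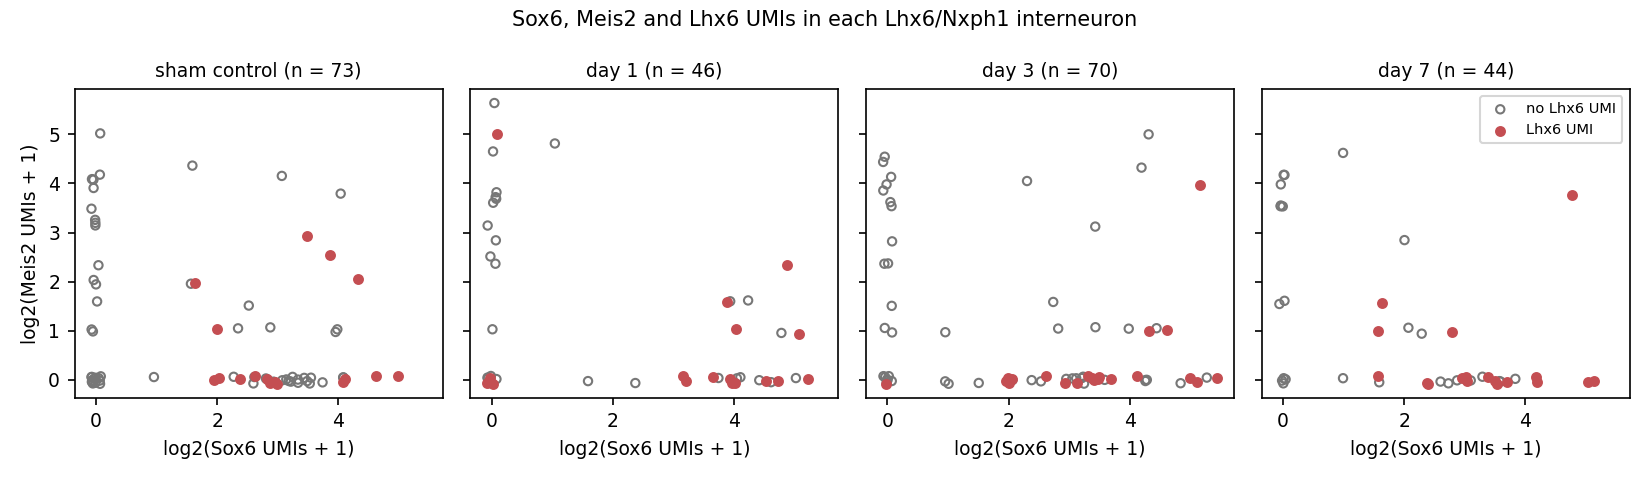
Sox6 UMIs (x axis) and Meis2 UMIs (y axis) of each member, both as log2(UMIs + 1), by library. Filled red points hold at least 1 Lhx6 UMI and open grey points hold none, with a small random offset so that points do not cover each other. Filled points lie mostly along the Sox6 axis, where 66 of 140 members with more Sox6 have a Lhx6 UMI, against 2 of 57 with more Meis2. Both genes were chosen after they were seen to differ by Lhx6 UMI, so this is no result.

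The last comparison set members of each day against members of sham control, which all 3 comparisons share. Agreement between the days is therefore not independent. Ratios of CPM carry exact conditional binomial 95% intervals for counting error, a gene was counted as past 2-fold when its 2 sums held at least 20 UMIs together, and no test was possible. Fewer nuclei of a subtype and less RNA per nucleus cannot be told apart in such sums. At day 1, 2.59% of 9138 genes were over 2-fold higher and 2.66% over 2-fold lower. At day 3 the shares were 2.38% and 3.5% of 8953 genes, and at day 7 they were 3.25% and 3.63% of 8492 genes. The median log2 ratio over all genes was 0.02, -0.04 and -0.01.

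Of the 7 genes of GABA synthesis and transport, 5, 6 and 6 had enough UMIs by day and 0 of them were past 2-fold, where the shares over all genes make a count of 0 unremarkable. Gad1 stood at 238, 289, 317 and 280 CPM, and Gad2 at 294, 295, 303 and 284 CPM, both in nuclei picked for these genes. Slc32a1, the vesicular GABA transporter, stood at 57.3, 54.6, 57.6 and 60.8 CPM, with a day 7 ratio of 1.06 (0.659 to 1.69).

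Receptor and channel genes past 2-fold numbered 0 to 2 per list and day, which is too few genes to set apart from the shares over all genes given above. Of 12 GABA-A receptor subunits 0 were past 2-fold on any day, with medians of -0.01, -0.27 and -0.11. Of 16 or 17 ionotropic glutamate receptor subunits only Grin2c at day 3 was, at 17.9 CPM in sham control and 7.67 CPM (ratio 0.428, 0.136 to 1.17). Of 16 potassium channel genes only Kcna4 at day 7 was, at 22.7 and 3.68 CPM, from 2 UMIs (ratio 0.162, 0.0183 to 0.673). Among sodium and calcium channels Cacna1i, a T-type channel, was higher at day 7 (31.1 and 68.2 CPM, ratio 2.19, 1.29 to 3.77) and Cacna1g, another T-type channel, was lower (44.2 and 20.3 CPM, ratio 0.458, 0.211 to 0.918). Of 10 stress and axon injury genes 0 were past 2-fold on any day. The heat-shock gene Hspa8 stood at 63.3, 60.7, 75.5 and 81.0 CPM.

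Somatostatin cell markers had medians of 0.19, 0.57 and 0.76 (at day 7 0.44 by the mean over nuclei, and 0.22 over 3 genes after thinning), with 1 of 10, 2 of 10 and 3 of 9 genes over 2-fold higher and 0 lower. Sst itself, part of the rule, stood at 184, 158, 137 and 182 CPM. Crhbp, which binds corticotropin-releasing hormone, stood at 9.56, 23.1, 33.3 and 40.5 CPM, seen in 7, 5, 14 and 12 members, with a day 7 ratio of 4.24 (1.82 to 11), and 1 nucleus held 52.6% of its day 1 UMIs. Crhbp was at 0 to 1.92 CPM in Adarb2 interneurons of every library and at 16.5, 31.2, 17.3 and 27.1 CPM in free RNA. Lypd6, a modulator of nicotinic receptors, stood at 20.3, 38.8, 53.7 and 57.1 CPM, with a day 7 ratio of 2.81 (1.51 to 5.42). All 3 days lay above sham control for both genes, but they share that 1 sham library, so these are not separate results.

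Npy stood at 47.8, 49.8, 64.0 and 122 CPM, and was past 2-fold only at day 7 (ratio 2.54, 1.69 to 3.87), with 47.5% of its sham UMIs in 1 nucleus. It was seen in 19.2%, 21.7%, 27.1% and 38.6% of members, and after thinning to 2000 UMIs in 4.11%, 6.52%, 8.57% and 18.2%. Glutamatergic barcodes gave 5.98%, 13.6%, 11.6% and 9.25% before thinning. Free RNA held much Npy, at 345, 447, 324 and 365 CPM in the 4 libraries, and its part in the member values was not tested. In Adarb2 interneurons Npy stood at 46.2, 28.3, 48.0 and 30.5 CPM.

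Markers of other GABAergic populations had medians of -1.06, -0.15 and -0.14, with 4 of 7 over 2-fold lower at day 1, namely Foxp2, Tshz1, Zic1 and Penk. Zic1, a zinc finger factor, stood at 23.9, 4.86, 16.6 and 12.9 CPM. With free RNA subtracted only 4 of the 7 genes had a value at day 1, with a median of 0.10. Parvalbumin cell markers had medians of -0.05, 0.36 and 0.27, with Tac1 higher at day 1 (10.8 and 29.1 CPM) and Gpr149 lower at day 1 and day 3. Pvalb stood at 46.6, 51.0, 44.8 and 44.2 CPM. Medial eminence transcription factors had medians of -0.19, 0.25 and 0.35, with 1 gene over 2-fold higher and 1 over 2-fold lower at day 7. Sox6 stood at 501, 518, 761 and 540 CPM. Markers of caudal eminence cells had medians of -0.08, -0.09 and -0.10 over 8 genes. Nr2f2, a nuclear receptor, was over 2-fold higher at day 1, at 27.5, 82.5, 29.4 and 25.8 CPM. Prox1 was over 2-fold lower at day 1, at 41.8 and 12.1 CPM, and Egfr at day 3, at 45.4 and 17.9 CPM. Lamp5 was over 2-fold lower on every day, at 27.5, 4.86, 7.67 and 7.37 CPM. Adarb2, which the rule bounds, stood at 221, 257, 182 and 33.2 CPM.

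Immediate-early and activity genes had medians of 0.21, -0.16 and -0.81, with 3 of 6 over 2-fold lower at day 7, namely Homer1, Inhba and Crem. Homer1, a scaffold of glutamatergic synapses, stood at 134, 91.0, 180 and 64.5 CPM, with a day 7 ratio of 0.482 (0.320 to 0.710). Crem, a cAMP-responsive transcription factor, stood at 26.3, 36.4, 23.0 and 12.9 CPM, with a day 7 ratio of 0.491 (0.177 to 1.19). Inhba, which encodes the activin subunit beta A, was lower on each day, at 41.8 CPM in sham control against 8.50, 7.67 and 12.9 CPM, but 68.6% of its sham UMIs came from 1 nucleus. Mt2, a metallothionein, was higher on each day, at 10.8 CPM against 31.6, 35.8 and 27.6 CPM, and 1 nucleus held 53.8%, 39.3% and 53.3% of its UMIs. Free RNA held Mt2 at 200 CPM in sham control and 419, 304 and 281 CPM after injury. Foxp2 stood at 141, 41.3, 43.5 and 60.8 CPM, seen in 16, 10, 11 and 9 members, with ratios of 0.293 (0.194 to 0.432), 0.308 (0.204 to 0.455) and 0.431 (0.284 to 0.639). The shared sham control lay above all 3 days for Foxp2, whereas Adarb2 interneurons held 333 to 405 CPM in every library. At day 3, 50% of Foxp2 UMIs in members came from 1 nucleus.

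**Figure D5:**
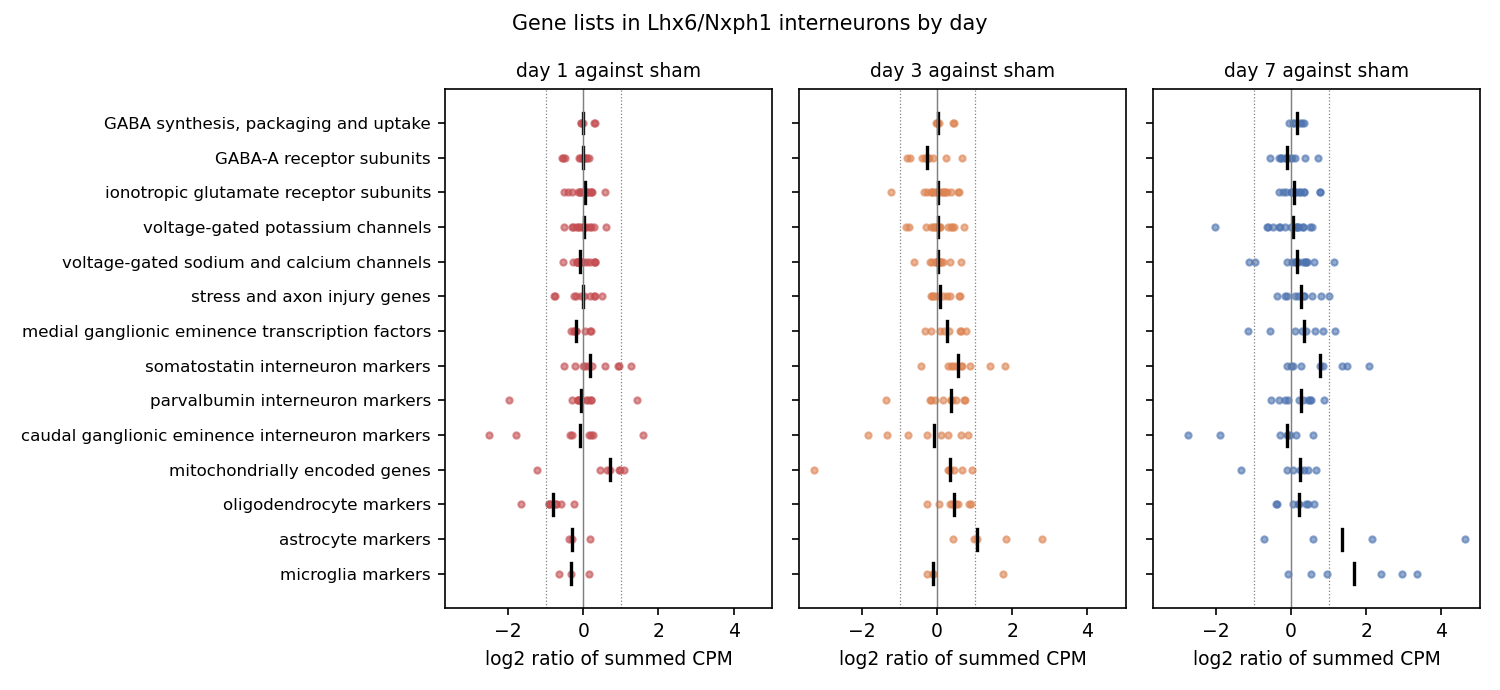
Log2 ratio of summed CPM in members, each day against sham control, for the genes of 14 lists with at least 20 UMIs over the 2 sums. Each point is 1 gene, the black bar is the list median, and dotted lines mark 2-fold. Receptor, channel and stress lists lie within the dotted lines but for a few genes, somatostatin markers reach a median of 0.76 at day 7, and astrocyte and microglia markers reach 1.36 and 1.67.

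Markers of glia and vessels moved with the days. Astrocyte markers had medians of -0.30, 1.07 and 1.36, and microglia markers -0.32, -0.11 and 1.67. Summed over the lists, astrocyte markers stood at 362, 307, 640 and 976 CPM in members and microglia markers at 124, 93.5, 145 and 313 CPM. Oligodendrocyte markers stood at 504, 314, 652 and 582 CPM, with 0 of 8 markers at 0 in any library, and precursor and vascular markers at 8.36, 44.9, 92.1 and 7.37 CPM. Aldh1l1 was at 0 in sham control and Tmem119 in all libraries but day 7. A few nuclei held much of this: the median member had 4, 7.5, 5 and 5 UMIs of glial and vascular markers, while the highest had 113, 80, 244 and 646. At day 7, 79.5% of Mbp UMIs and 79.7% of Gfap UMIs came from 1 nucleus. With members over 10 such UMIs left out (15, 14, 17 and 6 nuclei), the day 7 medians were -0.10 for astrocyte and -0.18 for microglia markers, each over 2 genes, and since nuclei were left out by these same markers the fall is fixed in part by the choice.

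The genes with the largest ratios rested on few UMIs. At day 1 the deubiquitinase Bap1 had 21 UMIs against 3 in sham control (ratio 7.11, 2.12 to 37.2), Kirrel 18 against 3, Ict1 21 against 4, and the mitochondrial carrier Slc25a33 30 against 7. Lower at day 1, with sham control given first, were Cpa6, a carboxypeptidase with 59 and 1 UMIs (ratio 0.0172, 0.000429 to 0.0998), Zic4 with 21 and 3, Chtop with 18 and 3, Lamp5 with 23 and 4, and the zinc transporter gene Tmem163 with 62 and 11. Cpa6 was also lower at day 7, with 1 UMI, and its sham UMIs came from 9 members.

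At day 3 the transcript 1700001K19Rik had the largest log2 ratio, with 36 UMIs in 22 members against 1 UMI in sham control (ratio 38.5, 6.49 to 1564). Vim, an intermediate filament of astrocytes and endothelium, had 46 UMIs against 4 in sham control (ratio 12.3, 4.50 to 47.1), 45.7% of them in 1 nucleus. Its log2 ratio was 3.62, and 2.07 by the mean over nuclei, and too few Vim UMIs were left for a value without marked doublets or without members over 10 glial or vascular UMIs. Fn1, fibronectin, had 2 and 24 UMIs and no value without its top nucleus or without marked doublets. Phldb2 had 5 and 35 UMIs, and Spp1, osteopontin, 5 and 31. The log2 ratio of Phldb2 was 2.91, with 1.94 without members over 10 glial or vascular UMIs and 3.43 with free RNA subtracted. That of Spp1 was 2.73, with 1.90 by the mean over nuclei and 2.84 without its top nucleus. In free RNA Spp1 stood at 30.6, 94.7, 272 and 102 CPM and Vim at 64.9, 92.4, 179 and 68.1 CPM, so both were highest at day 3 there too. Lower at day 3 were the receptor Gpr19 with 26 and 4 UMIs, the guidance cue Ntn1 with 22 and 4, and Rreb1 with 29 and 6.

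At day 7 the integrin Itgb5 (5 and 23 UMIs), the phagocytic receptor Mertk (15 and 53), the microglial growth factor receptor Csf1r (5 and 17), Spp1 (5 and 16) and Klhl14 (5 and 15) had the largest ratios, beside unnamed transcripts. Lower were Cpa6, the potassium channel gene Kcnh8 (39 and 2 UMIs, ratio 0.0791, 0.00925 to 0.305), Adarb2 and Prr3 (39 and 4). Itgb5, Mertk, Csf1r and Spp1 were seen in 5 or 6 of the 44 members. Of Mertk UMIs 43.4% lay in 1 nucleus, and of Csf1r UMIs 47.1%. Too few UMIs of Itgb5, Csf1r, Spp1 and Klhl14 were left for a value without the top nucleus. These genes and Mertk also had no value without members over 10 glial or vascular UMIs.

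Mitochondrially encoded genes had medians of 0.71, 0.34 and 0.23, which depended on the nuclei, the weighting and free RNA. The day 1 median was 1.78 without marked doublets, the day 3 median -0.58 in members with more Sox6 than Meis2, and the day 7 median -0.95 by the mean over nuclei. With free RNA subtracted only 1 of the 7 genes had enough UMIs, at -0.79, -4.34 and -3.76 by day. mt-Cytb, cytochrome b, stood at 343, 560, 542 and 470 CPM, with a day 1 ratio of 1.63 (1.41 to 1.90), and 40.3% of its day 1 UMIs came from 1 nucleus. Only mt-Co1 at day 1 was over 2-fold higher, and mt-Nd3 was over 2-fold lower on each day. Hypoxia and glycolysis genes gave 1 higher (Slc2a1) and 1 lower (Pdk1) at day 3 and 0 on the other days.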

How the data were processed

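The deposited values are raw UMI counts per gene and barcode. The authors mapped 10x 3' reads to GRCm38 with STAR 2.7.3a (STARsolo, exonic and intronic reads, GENCODE vM8), and the deposited counts precede any normalisation or removal of free RNA. Strand in counting is not given in the sources used here, so overlapping genes are uncertain. Here barcodes over 2000 UMIs were kept, members chosen by the rule, and UMIs summed per library and class. Class contrasts used edgeR 4.0.16 (TMM, library as block), tested on simulated counts, with DESeq2 1.42.0 as an alternative. Day ratios, with 1 library per group, carry exact intervals at the 95% level and no test. The members and gene lists were chosen with earlier results of these data known. Named genes were the 12 largest differences in each direction between classes (adjusted p under 0.05, mean CPM of at least 20, same direction in 4 libraries) and the 6 largest ratios per direction and day (at least 20 UMIs, interval excluding 1, under 50% of UMIs in 1 nucleus). Genes without a symbol of their own were left unnamed, except the largest ratio at day 3. From each list up to 4 genes were planned as examples, and other list genes were named after their values were seen. Positions are from GENCODE vM21 (46488 of 46983 IDs matched). Doublets were scored with Scrublet (scanpy 1.11.5), the highest scores were marked up to a set rate rather than by its own threshold, and marked barcodes stayed in unless stated. For ranking and list medians, sums under 3 UMIs were set to 3. Some genes are not reported here.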

Additional observations from a re-analysis of the deposited data

How the results depend on the processing

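Over barcodes with more than 5000 UMIs, the shares of members were 5.30%, 5.91%, 3.42% and 4.34% in the order of libraries given above, and thinning to 2000 UMIs gave 2.58% in sham control and 2.49% at day 1. For members against Adarb2 interneurons, DESeq2 called 124 genes higher and 101 lower, and thinning 119 and 102 of 2049 tested. Leaving out 1 library gave 145 to 256 higher and 136 to 236 lower. For Sst against Pvalb members, thinning called 22 higher and 23 lower of 216 tested, no filter 210 higher, DESeq2 54 lower, and leaving out 1 library 80 to 126 higher and 47 to 102 lower. For members without against with a Lhx6 UMI, DESeq2 called 53 higher and 67 lower, no filter 242 higher, thinning 32 and 34 of 760 tested, members with more Sox6 than Meis2 1 and 0, and leaving out 1 library 73 to 101 higher and 66 to 85 lower. Among members with more Sox6, which were picked by Meis2, its fold reversed to -0.25. Thinning tests fewer genes, and the cause of the other shifts was not tested. Without library as a block the 3 comparisons called 225 and 199, 138 and 103, and 82 and 86 genes. For the days, no paired analysis was possible because each group is 1 library.

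For the days, thinning left 77 genes over 2-fold higher and 110 lower at day 1, 95 and 104 at day 3, and 76 and 123 at day 7, and a minimum of 50 UMIs left 37 and 48, 55 and 56, and 49 and 68. At day 3, where TMM scaling gave 247 higher and 267 lower, 141 were higher without marked doublets and 117 without members over 10 glial or vascular UMIs. At day 7, 129 were higher without the top nucleus of each gene, 173 in members with more Sox6 and 148 without members over 10 glial or vascular UMIs, and 498 were lower by the mean over nuclei and 514 with free RNA subtracted. The median of other GABAergic populations at day 1 was -1.06 over 7 genes and 0.10 over the 4 left with free RNA subtracted. Astrocyte markers at day 7 turned to -0.36 without the top nucleus and to -0.10 without members over 10 glial or vascular UMIs, and microglia markers to -0.18 there and to -0.26 in members with more Sox6. Leaving out members by glial UMIs fixes in part the fall of these medians, which then rest on 2 genes each. The splits by Sox6, by glial UMIs and by nuclei with both markers were chosen after seeing the data. Of 659 refits of named genes between classes, 629 kept direction and call, 29 lost the call and 1 reversed. Of 174 values of named genes by day, 171 stayed within their counting interval and 3 moved. Those intervals can be wide, such as 6.49 to 1564 for 1700001K19Rik at day 3. Genes left with too few UMIs under a setting gave no value and are not in these counts. Fn1 at day 3, for example, had values only under TMM scaling and by the mean over nuclei. Of 650 medians of lists, 67 moved and 5 with a size of at least 1 changed sign, and of 116 counts of genes 43 moved.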
